A study of Mus musculus with 23 samples.

Results

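Exercise and sedentary muscle of C57BL/6J mice were compared for the use of alternative splicing events. The events described are all those that the authors' deposited table lists for this comparison, 72 of the 265 listed in the whole series, and they lie in 67 of its 221 genes. The exercised group is skeletal muscle of male C57BL/6J mice labelled exercise (5 samples), and its control is skeletal muscle of male C57BL/6J mice labelled sedentary (5 samples). Both groups are of 1 inbred strain, and no genetic change is labelled in either. The sources used here do not give the kind, length or timing of the exercise, the age of the mice or the muscle sampled. The series also holds muscle of male NZO/HIBomDife mice under caloric restriction (3 samples), under intermittent fasting (5 samples) or fed ad libitum (5 samples).

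Each event has 1 level per group, the percent spliced in (PSI), an estimate of the share of transcripts across a region that contain the listed stretch, on a scale from 0 to 1. These levels are the authors' own values for a group. They carry no standard deviation, the number of reads behind them is unknown, and no test between the groups could be made from them. The authors' calls chose the events: in the authors' deposited table no event is below 0.2 in absolute difference of PSI or below 0.9 in the probability of a difference. Sizes are therefore given as a description. Events tested and not called were not analysed here, so the share of all measured events that was called is not known. The table holds no expression levels, so the tissue label could not be checked against marker genes. Of 8 muscle fibre markers Neb alone had a listed event, and none of the endothelial, immune, adipocyte, fibroblast, satellite cell, smooth muscle or Schwann cell markers chosen for this purpose had one. Marker lists this short can be empty whether or not a cell type is present, so these counts do not show which cells were sampled. In bulk tissue, a change of splicing inside fibres and a change in the mix of cell types cannot be told apart.

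Splicing removes introns from a new transcript and joins the exons. A skipped exon is left out whole in some transcripts, a retained intron stays in, and alternative 3' or 5' splice sites move the border of an exon, so that a short stretch is gained or lost. A stretch whose length is divisible by 3 adds or removes whole codons if it is coding, whereas any other length shifts the reading frame. Transcripts that keep an intron are often held in the nucleus or degraded. In skeletal muscle, alternative exons of sarcomere genes such as nebulin and titin give rise to protein isoforms that differ between fibre types and stages of development.

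The sequence of a single listed stretch could be read in full, and it is shown because it lets a reader see what a listed retained intron is. The intron of Hirip3, a protein that binds the histone chaperone HIRA, is 83 nucleotides long (chr7:126862517-126862599, plus strand). It lies inside the RefSeq promoter window of Ino80e on the opposite strand, between 145 and 227 bases upstream of that start site. The sequence below runs from 20 bases before the intron to 20 bases after it (chr7:126862497-126862619, plus strand, RefSeq, GRCm38.p6), and the capitals mark the first and the last 2 bases of the listed stretch.
Hirip3 intron: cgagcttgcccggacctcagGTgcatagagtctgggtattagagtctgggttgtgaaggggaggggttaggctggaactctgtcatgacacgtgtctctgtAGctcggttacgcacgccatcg
The stretch begins with GT and ends with AG, the usual ends of an intron, so the listed positions are those of the intron itself, counted from 1 with both ends included. Its GC content is 51.8%, and 12 of the 20 bases before the closing AG are pyrimidines. A stop codon occurs in each of the 3 reading frames of the intron (1, 1 and 4 codons), and the length leaves a remainder of 2 when divided by 3. The level of this intron was 0.159 in exercised muscle, against 0.511 in sedentary muscle, so most Hirip3 transcripts lacked it after exercise.

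Of the 72 events, 35 had higher and 37 had lower PSI in exercised muscle (48.6% higher). Where the authors' deposited table gives 0.95 or more as the probability, 15 of 23 events were higher (65.2%). That share lies outside the exact confidence interval of the full list, 36.7% to 60.7%. The 23 events are part of the 72, and that interval does not give the uncertainty of a share of 23. Neb exons, which are not independent of each other, are among the 15, and the shift was not tested. The share stayed inside the interval of the full list with 21 of 41 events at an absolute difference of at least 0.3 and 33 of 62 in confidence class 1. It also did with 1 event per gene (31 of 67) and without Neb (30 of 67). Skipped exons were the most frequent type with 35 events, followed by 18 retained introns, 11 alternative 3' splice sites and 8 alternative 5' splice sites. The absolute difference between the groups had a median of 0.315 and reached from 0.203 to 0.631. It was at least 0.3 for 41 events. By type, the median absolute difference was 0.403 for 3' splice sites, 0.363 for retained introns, 0.313 for 5' splice sites and 0.295 for skipped exons.

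**Figure D1:**
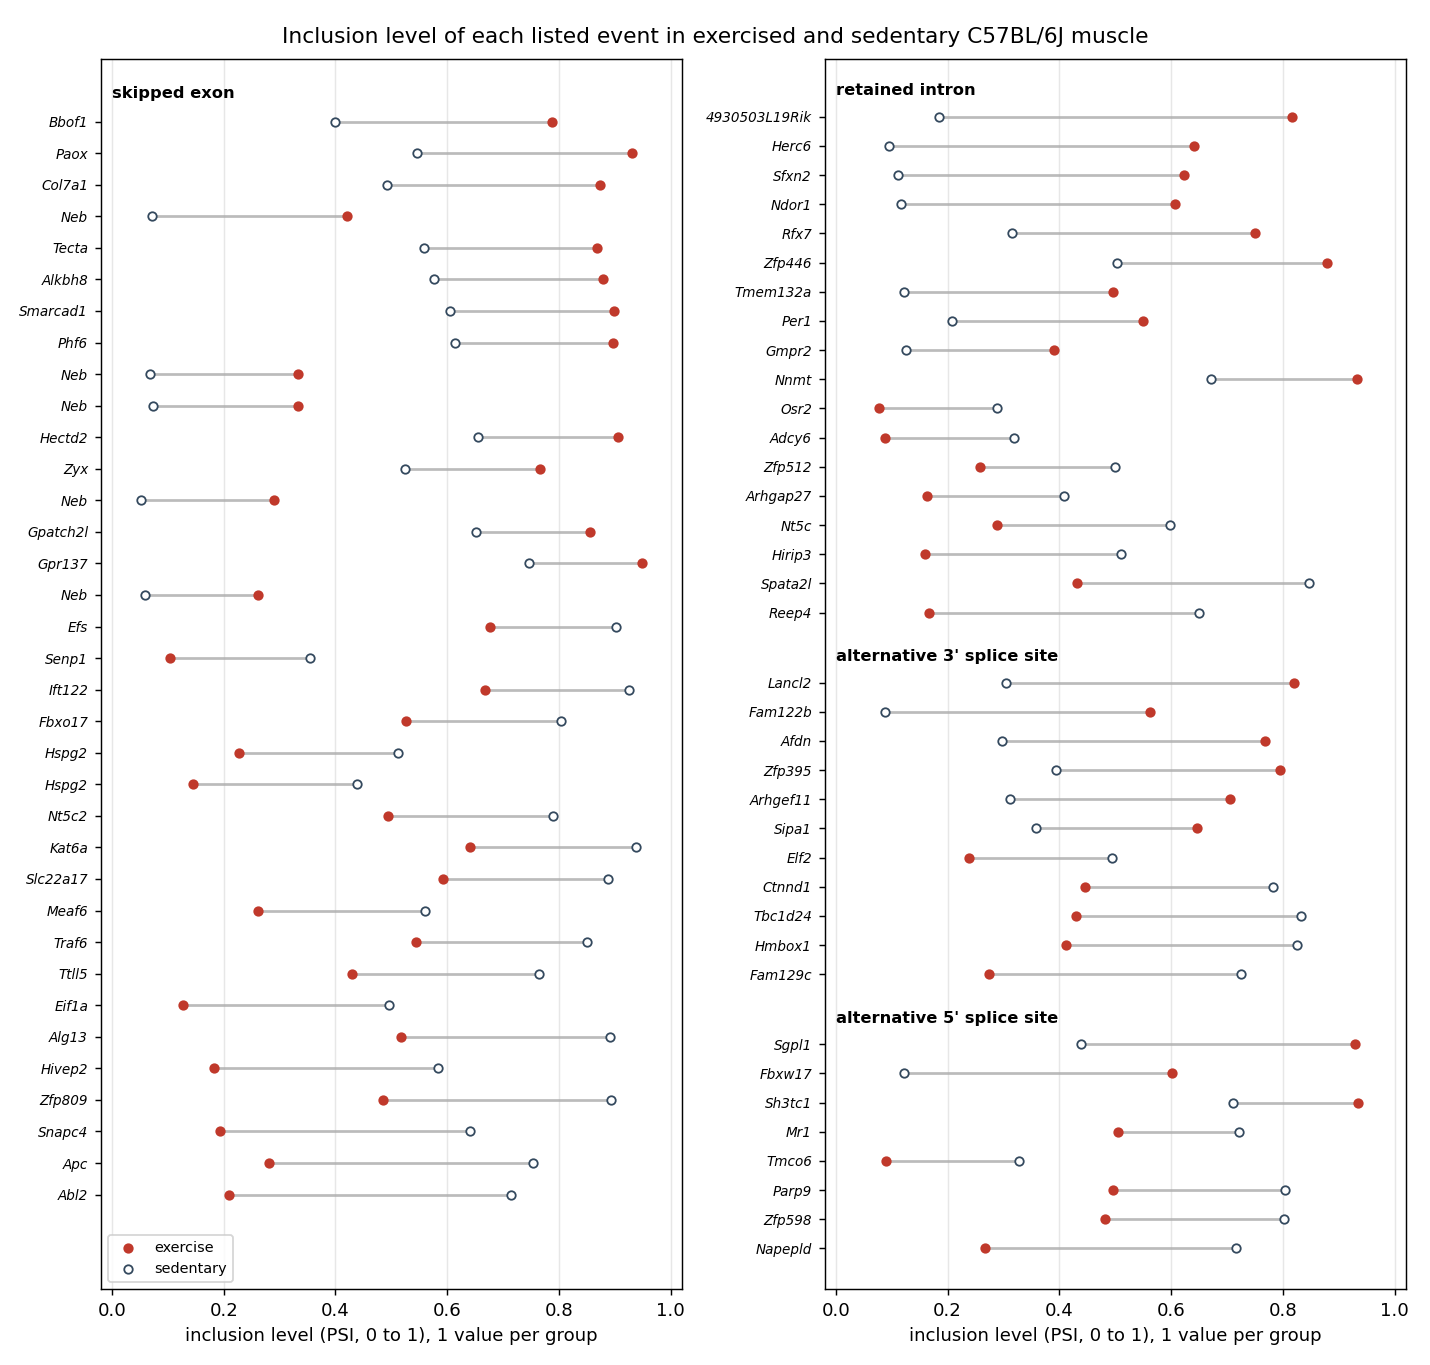
Inclusion level (PSI, 0 to 1) of each listed event in exercised (filled points) and sedentary (open points) C57BL/6J muscle, with skipped exons on the left, the other types on the right, and 1 value per group joined by a line. Within each type, events are ordered from the most higher in exercise to the most lower. The longest lines belong to the retained introns of 4930503L19Rik and Herc6.

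By these levels, the prevailing form of the transcript differed in 36 of the 72 events, in that the level lay on opposite sides of 0.5 in the groups. In 16 of them most exercised transcripts and a minority of sedentary ones held the stretch (upward), and in 20 it was the opposite (downward). Among 3' splice sites 10 of 11 events crossed in this way, 6 upward and 4 downward. Among skipped exons 11 of 35 did, 2 upward and 9 downward. Some crossings were narrow, as with Nt5c2 and Parp9 at 0.494 and 0.496 in exercised muscle and Col7a1 at 0.492 in sedentary muscle. Since the levels carry no spread, a change of the prevailing form is uncertain for such events. The starting level limits the direction in which an event can be listed. A sedentary level under 0.2 allowed only a higher level after exercise (13 events), and one above 0.8 only a lower level (13 events). Of the remaining 46 events, 22 were higher and 24 lower in exercised muscle.

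**Figure D2:**
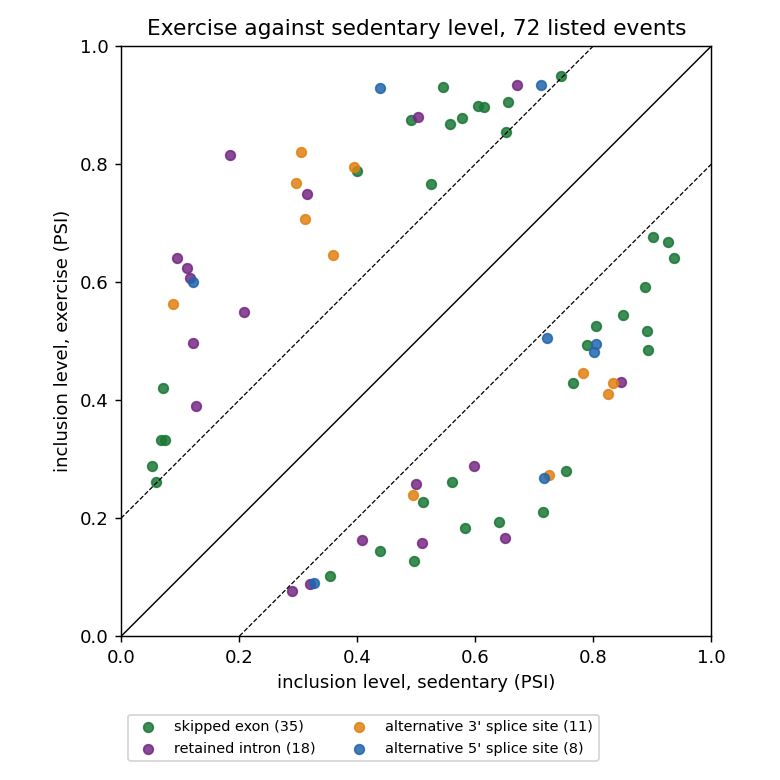
Inclusion level (PSI) in exercised muscle (vertical axis) against sedentary muscle (horizontal axis) for the 72 listed events, coloured by type, with the line of equal levels and dashed lines at a difference of 0.2. No event lies between the dashed lines, since none below that limit is listed. The 5 Neb exons form the group of skipped exons at the lower left.

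Retained introns included the largest difference of the comparison. The intron of 4930503L19Rik (chr18:70467486-70467758), a protein-coding gene with no assigned name in the files, had a level of 0.816 in exercised and 0.184 in sedentary muscle. In Herc6, a HECT and RCC1 domain protein, a 3095-nucleotide intron (chr6:57607708-57610802) was at 0.641 after exercise and at 0.0947 in sedentary mice. It is the longest stretch of the list. Both introns were in most exercised transcripts and in a small share of sedentary ones.

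Introns of a pair of genes with roles in mitochondria and redox chemistry followed the same course. Sfxn2 encodes a sideroflexin of the mitochondrial membrane, and its intron (chr19:46588011-46588223) was retained at 0.624 in exercised and 0.112 in sedentary muscle. For Ndor1, a diflavin oxidoreductase that passes electrons to the iron-sulfur cluster machinery, the values were 0.607 in exercised and 0.117 in sedentary muscle (chr2:25248241-25248335). The Sfxn2 intron has a length divisible by 3 (213 nucleotides), and that of Ndor1 does not (95 nucleotides).

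Per1, a light- and feeding-responsive repressor of the circadian clock, was the single listed gene among 25 clock genes. Its intron of 829 nucleotides (chr11:69105624-69106452) lies 10.9 kb into the gene and was retained at 0.549 in exercised muscle, against 0.208 in sedentary muscle. The time of day at which tissue was taken is not stated, so the part of sampling time in this difference was not tested.

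Of the other introns with more retention after exercise, that of Rfx7, a transcription factor of the RFX family, was at 0.749 in exercised and 0.315 in sedentary muscle (chr9:72532658-72532817). Tmem132a, a transmembrane protein, had 0.497 in exercised and 0.122 in sedentary muscle (chr19:10859756-10860123). The intron of Zfp446, a zinc finger protein, was already present in about as many sedentary transcripts as lacked it, with 0.880 in exercised and 0.503 in sedentary muscle. Gmpr2, a GMP reductase of purine metabolism, and Nnmt, which methylates nicotinamide, complete the 10 introns with higher retention.

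Retention was lower after exercise for 8 introns. Reep4, an endoplasmic reticulum shaping protein, had the largest such difference, with 0.167 in exercised and 0.650 in sedentary muscle (chr14:70547007-70547114). The Spata2l intron was at 0.431 in exercised and 0.846 in sedentary muscle (chr8:123235850-123236149), and a long non-coding RNA on the opposite strand, 4933417D19Rik, overlaps it. Because it is not stated whether reads were assigned by strand, the Spata2l level is uncertain. Nt5c, a nucleotidase that removes phosphate from nucleoside monophosphates, had 0.289 in exercised and 0.598 in sedentary muscle (chr11:115490968-115491137). Like the Hirip3 intron, each of these was in a minority of exercised and in most sedentary transcripts.

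Smaller decreases were listed for the introns of Zfp512 (0.257 in exercised and 0.499 in sedentary muscle), Adcy6 and Osr2. Adcy6 encodes an adenylyl cyclase, an enzyme that makes cyclic AMP, and its intron was at 0.0883 in exercised and 0.319 in sedentary muscle. Osr2 encodes a zinc finger transcription factor of the odd-skipped family, and its 956-nucleotide intron was at 0.0773 in exercised and 0.289 in sedentary muscle. The intron of Arhgap27 was the other one with less retention. Of the 18 introns 5 lay within 1 kb of the 5' end of their gene's annotated span (Spata2l, Gmpr2, Zfp512, Rfx7 and Hirip3). So did 1 of 35 skipped exons, 2 of 8 alternative 5' splice sites and 0 of 11 alternative 3' splice sites. In all, 8 of the 72 events lay there. A length divisible by 3 was found for 5 of the 18 introns (27.8%, exact confidence interval 9.7% to 53.5%).

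Among skipped exons, Neb was the gene with the most events. Neb encodes nebulin, which winds along the actin filament of the sarcomere and is made of many short repeats. Its 5 listed exons are 105, 105, 108, 312 and 312 nucleotides long, all divisible by 3. They lie within 31.1 kb of a gene that spans 202 kb, between 74.8 and 106 kb from its 5' end. In exercised muscle their levels were between 0.261 and 0.420, against 0.0519 to 0.0743 in sedentary muscle, which is 4.44 to 5.84 times as high. The highest exercised level was that of the exon at chr2:52246760-52246864, with 0.420 in exercised and 0.0720 in sedentary muscle. At sedentary levels this low, an exon could be listed only as higher, and only by at least 0.2. The limits of listing alone thus keep the levels of the 5 exons from overlapping between the groups. The exons belong to 1 gene of repeats and are not independent, and whether reads could be shared between its repeats was not determined. No Neb exon of the exercise list is among the Neb exons listed under either diet. The nearest of those lies 669 bases away (chr2:52257562-52257669). It was at 0.373 under caloric restriction and 0.000326 ad libitum, and at 0.229 under intermittent fasting and 0.000334 ad libitum. All Neb exons listed under either diet, in the NZO mice, had higher inclusion than ad libitum. Those listed under caloric restriction were at 0.065 or less ad libitum, so they too could be listed only as higher. The same held for the fasting exon given above, whereas the other fasting exon was at 0.544 under fasting and 0.244 ad libitum. Listing of Neb exons as higher was thus not particular to exercise, but the limits of listing fixed most of these directions.

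**Figure D3:**
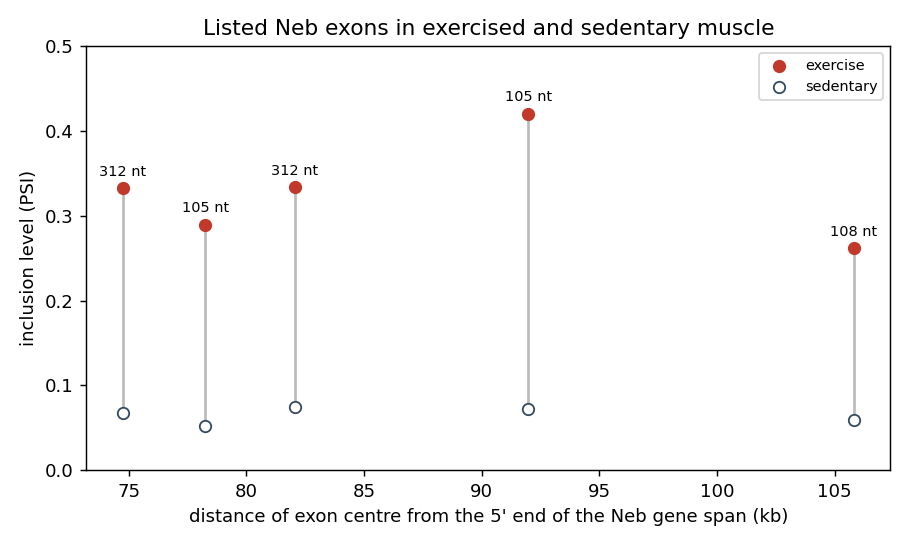
Inclusion level (PSI) of the 5 listed Neb exons in exercised (filled points) and sedentary (open points) muscle, placed by the distance of the exon centre from the 5' end of the gene span in kb, with exon lengths in nucleotides. Every exercised level is at least 0.261, and no sedentary level exceeds 0.0743. The limits of listing alone keep these levels apart.

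Without Neb, 11 of 30 skipped exons had higher and 19 lower inclusion after exercise. The largest differences of this type were decreases. An exon of 63 nucleotides in Abl2, a non-receptor tyrosine kinase that acts on the actin cytoskeleton, was at 0.210 in exercised and 0.715 in sedentary muscle (chr1:156620839-156620901). Apc, the scaffold that directs beta-catenin to degradation, had an exon of 105 nucleotides at 0.280 in exercised and 0.754 in sedentary muscle (chr18:34289838-34289942). Snapc4, a subunit of the complex that starts transcription of small nuclear RNA genes, had 0.194 in exercised and 0.640 in sedentary muscle (chr2:26378161-26378279). These exons were thus in a minority of exercised transcripts and in most sedentary ones.

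Exons of Zfp809, Hivep2 and Eif1a also had lower inclusion. Zfp809, a zinc finger protein that silences endogenous retroviruses, had 0.484 in exercised and 0.893 in sedentary muscle (chr9:22236202-22236294). For Hivep2, a large zinc finger transcription factor, the exon was at 0.183 in exercised and 0.583 in sedentary muscle (chr10:14117519-14117600), and the opposite-strand long non-coding RNA Gm51759 overlaps it, so its level is uncertain in the same way. Eif1a, a translation initiation factor that acts on the small ribosomal subunit, had 0.128 in exercised and 0.497 in sedentary muscle. That exon lies 0.400 kb from the 5' end of its gene (chr18:46598051-46598156).

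Hspg2, which encodes perlecan, a heparan sulfate proteoglycan of basement membranes, was the other gene with more than 1 event. Its exon of 102 nucleotides was at 0.228 in exercised and 0.512 in sedentary muscle (chr4:137524355-137524456). The second, of 84 nucleotides and 1881 bases downstream, was at 0.145 in exercised and 0.438 in sedentary muscle (chr4:137526338-137526421). Both lengths are divisible by 3, and both exons were lower in exercised muscle by nearly the same amount, 0.284 and 0.294. Col7a1, the collagen of anchoring fibrils, is another matrix gene and had the opposite direction, with an exon of 36 nucleotides at 0.874 in exercised and 0.492 in sedentary muscle (chr9:108973192-108973227).

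Further exons with less inclusion were those of Alg13, Ttll5 and Traf6. Alg13, which takes part in the early steps of N-glycosylation, had 0.518 in exercised and 0.891 in sedentary muscle (chrX:144355584-144355652). Ttll5, an enzyme that adds glutamate chains to tubulin, had 0.430 in exercised and 0.765 in sedentary muscle. Traf6, a ubiquitin ligase of cytokine and innate immune signalling, had 0.545 in exercised and 0.851 in sedentary muscle. All of these exons were in most sedentary transcripts, and that of Ttll5 alone was in a minority after exercise.

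Meaf6, a subunit of histone acetyltransferase complexes, had an exon at 0.261 in exercised and 0.561 in sedentary muscle. Nt5c2, a cytosolic nucleotidase that acts on purine monophosphates, had 0.494 in exercised and 0.789 in sedentary muscle. In Fbxo17, an F-box protein, the level was 0.527 in exercised and 0.804 in sedentary muscle, and in Ift122, a component of intraflagellar transport in cilia, it was 0.668 in exercised and 0.926 in sedentary muscle. The remaining exons with lower inclusion were those of Efs, an adaptor of the Cas family, Slc22a17, a lipocalin-2 receptor, Senp1, a SUMO protease, and Kat6a, a histone acetyltransferase. Their 4 absolute differences were between 0.225 and 0.296.

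Exons with higher inclusion after exercise were led by Bbof1, a protein of ciliary basal bodies, with 0.788 in exercised and 0.400 in sedentary muscle (chr12:84426708-84427201). Paox, a polyamine oxidase of peroxisomes, had 0.930 in exercised and 0.545 in sedentary muscle (chr7:140126326-140126815), with a probability of 0.993 in the authors' deposited table. These are the longest skipped exons of the list, with 494 and 490 nucleotides, and neither length is divisible by 3.

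Tecta, a component of the extracellular matrix of the inner ear, had an exon at 0.868 in exercised and 0.558 in sedentary muscle. Alkbh8, which modifies the wobble position of transfer RNA, had 0.878 in exercised and 0.577 in sedentary muscle. Hectd2, a HECT-domain ubiquitin ligase, had 0.905 in exercised and 0.655 in sedentary muscle. The exons of Gpatch2l (0.855 in exercised and 0.652 in sedentary muscle) and Gpr137, a membrane protein of lysosomes (0.949 in exercised and 0.746 in sedentary muscle), were close to the lower limit of size. Exons of Zyx, the focal adhesion protein zyxin, Phf6, a PHD finger protein, and Smarcad1, a chromatin remodeller, also had higher inclusion, by 0.241 to 0.293.

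Frame and direction of the skipped exons can be set side by side. Of the 35 exons 17 have a length divisible by 3 (48.6%, exact 95% confidence interval 31.4% to 66.0%), and without Neb 12 of 30 do. Among those 12 exons, 2 had higher and 10 lower inclusion after exercise, with both Hspg2 exons among the 10. Among the 18 exons of other lengths, 9 were higher and 9 lower. The exact 95% confidence intervals of the share higher overlap, at 2.1% to 48.4% and 26.0% to 74.0%. The 5 Neb exons left out of this contrast have lengths divisible by 3 and were all higher. The contrast was not tested. Whether a stretch is coding was not determined here. Without Neb, a length divisible by 3 was found for 33 of 51 skipped exons under caloric restriction and 17 of 35 under intermittent fasting. The difference between these lists was not tested. Intervals cover counting of listed events only, not variation between mice.

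**Figure D4:**
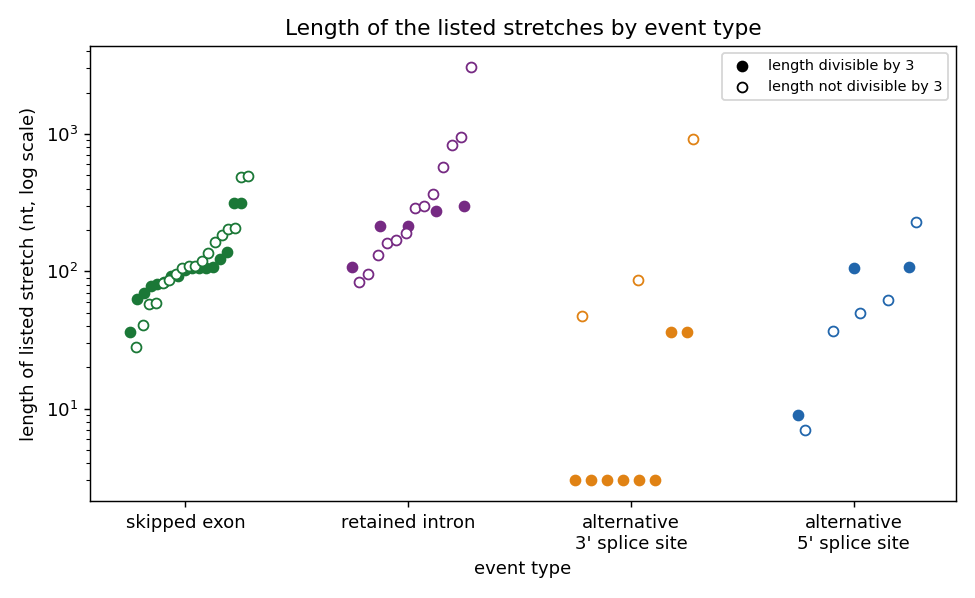
Length of each listed stretch in nucleotides (log scale) by event type, with filled points for lengths divisible by 3 and open points for other lengths. Skipped exons lie between 28 and 494 nucleotides, retained introns reach 3095, and 6 of the 11 alternative 3' splice site stretches are 3 nucleotides long.

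Alternative 3' splice sites were mostly small shifts of the exon start. In 6 of 11 events the stretch was 3 nucleotides long, the length of 1 codon, as when 2 acceptor sites lie in tandem. The same length was found for 12 of 21 such events under caloric restriction and 7 of 13 under intermittent fasting. Afdn encodes afadin, which links nectins to actin at cell junctions, and its 3 nucleotides were included at 0.767 in exercised and 0.297 in sedentary muscle (chr17:13807277-13807279). Zfp395, a zinc finger protein, had 0.794 in exercised and 0.395 in sedentary muscle (chr14:65385396-65385398). In Arhgef11 the level was 0.706 in exercised and 0.312 in sedentary muscle (chr3:87717421-87717423). Each of these was in most exercised transcripts and in a minority of sedentary ones.

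The opposite direction was seen for the 3-nucleotide stretches of Hmbox1 and Ctnnd1. Hmbox1, a homeobox protein that binds telomeric DNA, had 0.411 in exercised and 0.825 in sedentary muscle (chr14:64825693-64825695). Ctnnd1 encodes p120-catenin, which stabilises cadherins at the cell surface, and had 0.447 in exercised and 0.783 in sedentary muscle (chr2:84602901-84602903). The last of the 6 was Sipa1, a GTPase-activating protein for Rap, with higher inclusion in exercised muscle. The 4 higher and 2 lower events of this length thus ran both ways.

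Longer 3' splice site stretches had some of the largest differences. Lancl2, a LanC-like protein of the plasma membrane and cytosol, had 47 nucleotides near the end of the gene at 0.820 in exercised and 0.305 in sedentary muscle (chr6:57739025-57739071). A stretch of 919 nucleotides in Fam122b was at 0.563 in exercised and 0.0880 in sedentary muscle (chrX:53245372-53246290). For Fam129c, listed in RefSeq as Niban3, 36 nucleotides were at 0.274 in exercised and 0.726 in sedentary muscle (chr8:71607505-71607540). Tbc1d24, a TBC-domain protein of vesicle trafficking, had 0.430 in exercised and 0.833 in sedentary muscle. The event of Elf2, an ETS transcription factor, was lower in exercised muscle by 0.256.

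Alternative 5' splice sites gave 3 events with higher and 5 with lower inclusion. Sgpl1 encodes the lyase that degrades sphingosine-1-phosphate irreversibly, and a stretch of 62 nucleotides there (chr10:61147523-61147584) was at 0.929 in exercised and 0.439 in sedentary muscle. Its centre lies 0.131 kb from the 5' end of the gene, closer than that of any other listed event. Fbxw17, an F-box protein with WD repeats, had 37 nucleotides at 0.601 in exercised and 0.121 in sedentary muscle (chr13:50419992-50420028). The third, Sh3tc1, had a difference of 0.223.

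Among decreases, Napepld, the phospholipase that releases N-acylethanolamines such as anandamide, had 230 nucleotides at 0.268 in exercised and 0.717 in sedentary muscle (chr5:21700975-21701204). In Zfp598, the mouse counterpart of a ubiquitin ligase that senses collided ribosomes, 9 nucleotides were at 0.482 in exercised and 0.801 in sedentary muscle (chr17:24678705-24678713). Mr1, which presents vitamin metabolites to T cells, had 0.505 in exercised and 0.721 in sedentary muscle. The 7-nucleotide stretch of Tmco6 was at 0.0896 in exercised and 0.328 in sedentary muscle. Mr1 and Parp9, described below, have stretches of 105 and 108 nucleotides, and these and Zfp598 are the 3 events of this type with a length divisible by 3.

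The events were set against 10 lists of genes, of which 8 had a member. The lists were chosen with earlier results of these data known, so this count is not independent of the events. Several lists take genes by the first letters of the symbol, so they only approximate a role and miss genes named otherwise. The list taken by prefixes of zinc finger and transcription regulators (Zfp, Hivep, Parp and others) had 7 of its 745 protein-coding genes. Each had 1 event, 2 higher and 5 lower in exercised muscle. This list holds Zfp598 and Parp9, which have the other roles given here. It leaves out the transcription factors Osr2, Rfx7 and Elf2 and the homeobox protein Hmbox1. The list by prefixes of ubiquitin ligases and deubiquitinases had 4 of 451 (Herc6, Hectd2 and Fbxw17 higher, Fbxo17 lower). It misses Traf6 and Zfp598, both lower. The list of mitochondrial and redox proteins, with 356 genes, had Sfxn2 and Ndor1, both higher. Vesicle trafficking, with 423 genes, had Reep4 and Tbc1d24, both lower. The clock, sarcomere, lipid enzyme and kinase lists, of 25, 56, 46 and 377 genes, had 1 gene each (Per1, Neb, Sgpl1 and Abl2). None of 82 RNA-binding and spliceosome proteins and none of 37 genes known to respond to exercise had a listed event. With 67 genes listed in all, lists this short can be empty without any role being avoided. Median absolute differences were 0.377 for the transcription prefixes and 0.378 for the ubiquitin prefixes, beside 0.315 for all listed events. Of the lists with a listed event, the sarcomere list alone lay below that, at 0.259 for its 5 events, all in Neb. Such counts describe the list and do not show that any role was favoured, because the genes measured and not called were not analysed here. No share over all measured genes could be set beside them, so whether a count is high or low is not known.

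A few exercise events were also listed under a diet in the NZO mice, which have their own ad libitum controls. Identical position and type were found for 3 events under caloric restriction, 4.17% of the exercise list and 2.63% of the caloric restriction list. For intermittent fasting it was 1 event, 1.39% of the exercise list and 1.27% of the fasting list. By gene, 7 of the 67 exercise genes were listed under caloric restriction and 3 under fasting.

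The Zfp446 intron (chr7:12981928-12982118) was the event found in all 3 lists. Its level was 0.880 in exercised and 0.503 in sedentary muscle, 0.817 under caloric restriction and 0.688 under fasting, with 0.306 ad libitum in both dietary comparisons, which share those mice. The skipped exon of Hectd2 (chr19:36597077-36597186) was at 0.905 in exercised and 0.655 in sedentary muscle, and at 0.907 under caloric restriction and 0.668 ad libitum. A 108-nucleotide 5' splice site stretch of Parp9, an ADP-ribosyltransferase family member of interferon responses (chr16:35943403-35943510), had opposite directions. It was at 0.496 in exercised and 0.804 in sedentary muscle, but at 0.779 under caloric restriction and 0.503 ad libitum. Most of the authors' probabilities for these events were close to the limit of 0.9. For exercise and caloric restriction they were 0.906 and 0.902 for Hectd2, and 0.911 and 0.904 for Parp9. For Zfp446 they were 0.926 for exercise, 0.984 for caloric restriction and 0.908 for fasting. No test of these differences between strains could be made.

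**Figure D5:**
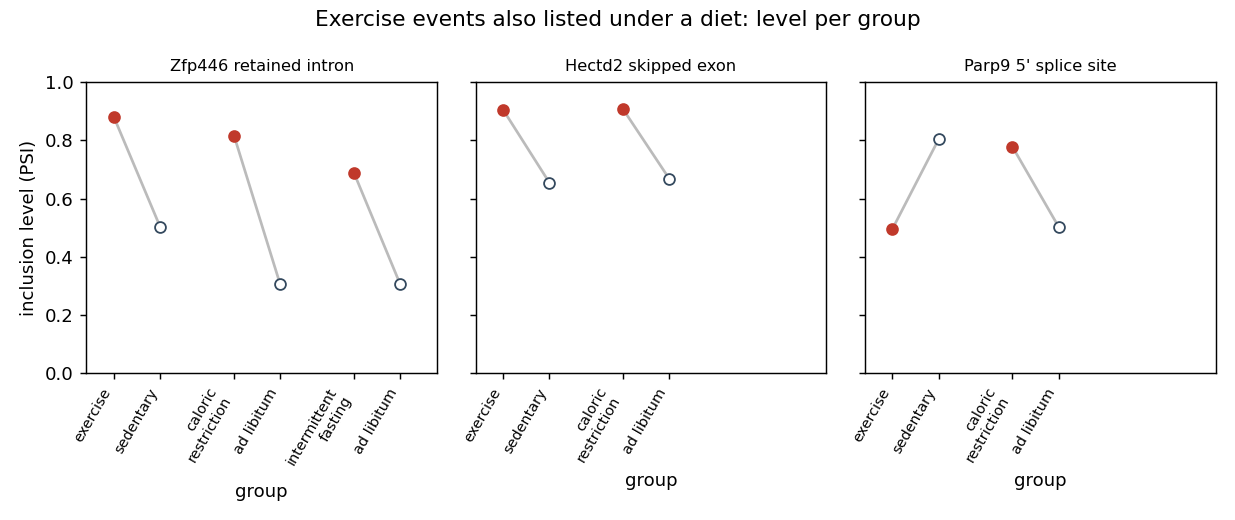
Inclusion level (PSI) of the 3 exercise events listed at the same position under a diet, with treated groups as filled and their controls as open points, 1 value per group. Lines for Zfp446 and Hectd2 slope the same way in each comparison, whereas those of Parp9 slope in opposite ways.

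Other genes in common had different positions, among them Neb, described above. Zfp809 had lower inclusion of an exon 1380 bases away under caloric restriction, at 0.692 under caloric restriction and 0.913 ad libitum. Col7a1 had higher inclusion of another exon, at 0.964 under caloric restriction and 0.763 ad libitum (chr9:108979799-108979879). Hectd2 also had a 3-nucleotide 3' splice site event under both diets, which was not listed after exercise, with 0.158 under caloric restriction and 0.710 ad libitum.

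The evidence per event differed. In the authors' deposited table the probability had a median of 0.936 and reached 0.995 for the 4930503L19Rik intron, and 23 of the 72 events had at least 0.95. The events just inside the limit of size were the Neb exon at chr2:52232921-52233028 (0.261 in exercised and 0.0589 in sedentary muscle), Gpr137, Gpatch2l, Osr2 and Mr1, with absolute differences of 0.203 to 0.216. Just inside the limit of probability were Napepld with 0.9, Adcy6, Nt5c2 and Tmco6 with 0.903 and Zfp512 with 0.904 in the authors' deposited table. A confidence class of 2, whose meaning is not stated, was given to 10 events in the authors' deposited table. Of these, 9 were skipped exons (Alg13, Ift122, Meaf6, Alkbh8, Slc22a17, Traf6, Ttll5, Smarcad1 and Kat6a) and 1 was the Adcy6 intron, and 8 of the 10 had lower inclusion in exercised muscle.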

How the data were processed

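RNA was taken from skeletal muscle of male mice with a column kit and DNase treatment, per the labels' protocols. Per the series' design text, splicing was analysed with Whippet and rMATS. The submitters' processing notes name mm10 as the genome build. The sources used here do not give sequencing depth, which tool gave which value or how samples were combined.

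The authors deposited, per the file headers, 1 row per called event, with inclusion levels as a fraction from 0 to 1 (1 per group), and a difference, a probability and a confidence class as scores of the comparison. The deposited difference is control minus treated (largest gap to the levels 1e-05). It was recomputed here as exercise minus sedentary.

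Counts, lengths and exact (Clopper-Pearson) intervals of 95% were computed in Python 3.11.15 (pandas 2.3.3, scipy 1.17.1 and numpy 2.4.6), and figures were drawn with matplotlib 3.10.9. The counting was checked on simulated data. Samples were grouped by the intervention label. A second label names the experiment and reads exercise for the sedentary mice too. RefSeq (GRCm38.p6, the assembly of mm10) matched 66 of 67 symbols and 1 by an older name. All 67 genes are protein-coding, and all 72 events lie inside their gene's span. That table and the promoter sequences gave names, spans and the printed sequence.

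Members and lists were chosen with earlier results of these data known. Several lists were defined by the first letters of gene symbols. Levels are printed for 59 events that belong to a listed gene, to a gene with more than 1 event or to an event shared with a diet, that had a difference of at least 0.3 or a probability of at least 0.95, or that were among the 5 nearest each limit. The other 13 are named by direction, most with a difference or a range. Levels of Efs, Slc22a17, Gmpr2 and Kat6a, which are among them, appear in the closing observations. Stricter limits, 1 event per gene, leaving out Neb, confidence class 1, another way of counting positions and overlap in place of identity were tried as alternatives.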

Additional observations from a re-analysis of the deposited data

How the results depend on the processing

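Limits of at least 0.95 in probability left 23 events and of at least 0.3 in absolute difference 41 events, in place of 72. With the first, the share of events with higher inclusion after exercise was 65.2%, in place of 48.6%, and the median absolute difference was 0.385, in place of 0.315. With the second, the median was 0.400, as the removal of small differences requires. If starts were counted from 0, the share of skipped exons with a length divisible by 3 would be 22.9%, in place of 48.6%, but the GT and AG ends of the Hirip3 intron fall on the listed positions only when counting is from 1. With a probability of at least 0.95 asked of both lists, 0 of the 3 events shared with a diet were left. The other 21 alternative values stayed within 1.5 times the count or within the 95% interval of the value reported, among them all those with 1 event per gene, without Neb and with confidence class 1 alone. No paired analysis was possible because each group has only 1 pooled level and no label ties an exercised mouse to a sedentary one. For the same reason no sample could be left out, and the depth behind a level is unknown.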

Other observations

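Efs and Slc22a17 were the only pair of different genes with listed exercise events within 100 kb of each other. Their skipped exons lie 12.2 kb apart on the minus strand of chromosome 14. The Efs exon was at 0.677 in exercised and 0.901 in sedentary muscle, and the Slc22a17 exon at 0.592 in exercised and 0.888 in sedentary muscle. The pair was chosen after its values were seen.

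Genes of nucleotide metabolism, also put together after their values were seen, had 3 events. The intron of Nt5c was at 0.289 in exercised and 0.598 in sedentary muscle, the exon of Nt5c2 at 0.494 in exercised and 0.789 in sedentary muscle, and the intron of Gmpr2 at 0.390 in exercised and 0.126 in sedentary muscle. Meaf6 and Kat6a, which are known as partners in a histone acetyltransferase complex, both had lower inclusion of an exon, with 0.642 in exercised and 0.937 in sedentary muscle for Kat6a. No test of these groupings was made.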
